A study of Mus musculus with 20 samples.

Results

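The rows named Erbb2, Mien1 and Grb7, chosen by name as neighbouring genes on mouse chromosome 11, were followed through 20 RNA-seq libraries, as 3 of the 46329 gene rows counted in each. Colorectal tumors and adjacent non-tumor epithelium came from C57BL/6J mice aged 100 days. Erbb2-deficient tumors and Erbb2-deficient adjacent tissue (ApcMin/+, Erbb2f/f, Tg(Vil1-cre)) were set against tumors and adjacent tissue of littermate controls (ApcMin/+, Erbb2f/f), with 5 libraries in each of the 4 groups. All mice therefore carried ApcMin and the floxed Erbb2tm1Mll allele, and the genotypes differed by the cre transgene as well as by its recombination of Erbb2. Since the Villin promoter drives cre in intestinal epithelium, other cells of the tissue keep an unrecombined Erbb2 gene. The libraries are labelled as biological replicates, and no label ties a tumor to adjacent tissue from its own mouse, so the spread between the libraries is what each p-value measures. The study asks what ERBB2 does in colorectal tumor progression in this model.

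ERBB2, also called HER2, is a tyrosine kinase at the cell surface, related to the EGF receptor, that binds no known ligand of its own and signals as the partner of its relatives. GRB7 is an adaptor protein whose SH2 domain binds phosphorylated receptors, ERBB2 among them. MIEN1 (migration and invasion enhancer) is a small membrane-anchored protein known from human tumor cells. In human breast cancers with an amplified ERBB2 gene, GRB7 and MIEN1 are commonly amplified with it.

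In the GENCODE M21 annotation, Erbb2 and Grb7 lie on the plus strand and Mien1 lies between them on the minus strand. The exons of Erbb2 and Mien1 share 9 bases, end to end, and Mien1 also shares 281 exon bases with Gm12352, a gene on the strand opposite Mien1 that has no row of its own in the files. The Mien1 span is 1284 bases in that annotation and ends 7402 bases before Grb7. In the RefSeq annotation of GRCm38.p6 the span of Mien1 is 20523 bases, from 2 transcripts, and the whole 8540-base span of Grb7 lies within it on the opposite strand. No exon of another gene lies opposite Grb7 in GENCODE M21. Both annotations belong to the assembly before mm39, the build of the counts, and were used for order, strand and overlap. Exon lengths were taken from GENCODE M21 as well. The start window of Mien1 is printed because annotation of the other strand crosses it, and that of Erbb2 as the window of the targeted gene: 250 bases before to 50 bases after each RefSeq start, on GRCm38.p6, read along the gene's own strand. The Erbb2 window is chr11:98412234-98412533, plus strand, and its capitals mark GAGGAA, a sequence bound by ETS factors that is known from the human ERBB2 promoter, which was the only motif searched, on both strands. The Mien1 window is chr11:98438939-98439238, minus strand, and its capitals mark the 80 bases that lie opposite an exon of Gm12352.
Erbb2: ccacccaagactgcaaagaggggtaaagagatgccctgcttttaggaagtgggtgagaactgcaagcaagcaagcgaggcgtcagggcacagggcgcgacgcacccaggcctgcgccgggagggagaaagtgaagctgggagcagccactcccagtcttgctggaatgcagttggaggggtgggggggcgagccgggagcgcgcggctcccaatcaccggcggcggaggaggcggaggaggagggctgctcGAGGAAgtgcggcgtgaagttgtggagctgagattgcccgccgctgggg
Mien1: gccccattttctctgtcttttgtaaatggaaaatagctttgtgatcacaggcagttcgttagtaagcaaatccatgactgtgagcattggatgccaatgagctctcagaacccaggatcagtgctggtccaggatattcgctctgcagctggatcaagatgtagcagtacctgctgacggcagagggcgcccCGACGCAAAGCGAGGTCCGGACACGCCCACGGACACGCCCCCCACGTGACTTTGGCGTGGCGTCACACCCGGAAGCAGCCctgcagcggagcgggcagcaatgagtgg
GAGGAA was found in 28.3% of the 32851 windows of this length. The Erbb2 window holds 21 CG pairs and the Mien1 window 17, against a median of 7 over all windows. The stretch in capitals runs from position -58 to position 22 around the Mien1 start, so an exon of Gm12352 crosses it. A Gm12352 read counted on the opposite strand could reach the Mien1 row only where it covers bases shared with a Mien1 exon. An Erbb2 read so counted would reach the Mien1 row only where it covers the 9 shared bases. These shared bases are those of GENCODE M21, and the annotation behind the counts is not known here. Whether Grb7 and Mien1 share exon bases in it was not examined.

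The libraries held 1071737 to 1944309 counts on genes, which was 2.51% to 3.45% of their reads, while 78.6% to 85.1% of reads lay on no feature. The mitochondrial row ND6, whose gene is transcribed from the strand opposite to that of the other 12 protein genes there, held 22599 to 199495 counts, more than those 12 rows together (884 to 5698 counts) in 20 of 20 libraries. The row of Gapdh, a glycolysis gene that every cell uses, held 0 to 12 counts. Counting on the strand opposite to the transcripts would give such values, and the strand setting is not given in the sources used here. In that case the Erbb2, Mien1 and Grb7 rows hold reads from the strand opposite each gene, and their values are given here as values of the rows, not as expression of the genes. The same limit holds for the cell type marker rows and for every other row named. The row of Erbb2 sums the whole gene and therefore checks neither the deletion nor the genotype labels. Levels are CPM, counts scaled to each library's gene counts and corrected by TMM (the trimmed mean of M-values), and intervals on counts cover counting error only.

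Replicate 2 of the control tumors stood apart from the other 19 libraries. Its 9 epithelial marker rows summed to 15.4 CPM, against 236 to 634 CPM in the others, with Epcam, Cdh1, Krt8, Krt18, Krt19, Cdx1 and Cdx2 at 0 counts. Its 7 goblet cell marker rows were all at 0, against sums of 27.9 to 898 CPM elsewhere. Its 8 lymphoid marker rows summed to 369 CPM, with none at 0, against 50.5 to 114 CPM in the other libraries, which had 1 to 5 of these rows at 0. Within the limit on strand given above, these marker rows go against the label of colorectal tumor. Differences of the Erbb2, Mien1 and Grb7 rows that involve control tumors are given with and without this library. Control tumor differences of the marker rows, the listed genes and other named rows are given only with it. The summed smooth muscle rows of this library (160 CPM) lay just below the range of the others (161 to 2516 CPM), and its fibroblast rows (10.9 CPM) lay within theirs (9.79 to 136 CPM). Control tumor 3 also differed from control tumors 1, 4 and 5. Its goblet rows summed to 601 CPM, against 54.4, 51.4 and 40.7 CPM in those tumors. Its smooth muscle rows summed to 515 CPM, against 205, 216 and 161 CPM there. Results without control tumors 2 and 3 are given with the alternatives.

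Per kilobase of GENCODE M21 exon, the Mien1 row had the highest mean level of the 33 genes listed around Erbb2, at 259 CPM per kilobase over the 20 libraries. This rank rests on a Mien1 exon length of 747 bases, and the length in the annotation behind the counts is not known here. In mean counts, not corrected for length, Thra (755) and Nr1d1 (280) exceeded Mien1 (241). The Grb7 row averaged 2.54 CPM per kilobase and ranked 9, or 1.87 and rank 10 without control tumor 2. The Erbb2 row averaged 1.26 CPM per kilobase and ranked 12, or 1.32 and rank 11 without that library. In adjacent tissue the row next in level to Mien1 was Thra, a thyroid hormone receptor, at 201 CPM per kilobase in Erbb2-deficient mice and 239 in controls. In tumors it was Rpl19, a ribosomal protein gene, at 103 CPM per kilobase in Erbb2-deficient mice and 87.1 in controls, while Thra stood at 34.04 in Erbb2-deficient mice and 41.1 in controls. Between Rpl19 and Mien1 most rows were sparse. Pgap3, next to Erbb2, held 0 to 19 counts per library, Stard3 0 to 5, and Tcap and Pnmt 0 to 1 each. Over the 20 libraries the rows collected 168 counts for Erbb2, 4821 for Mien1 and 211 for Grb7, so the precision for Erbb2 and Grb7 is limited by small counts.

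**Figure D1:**
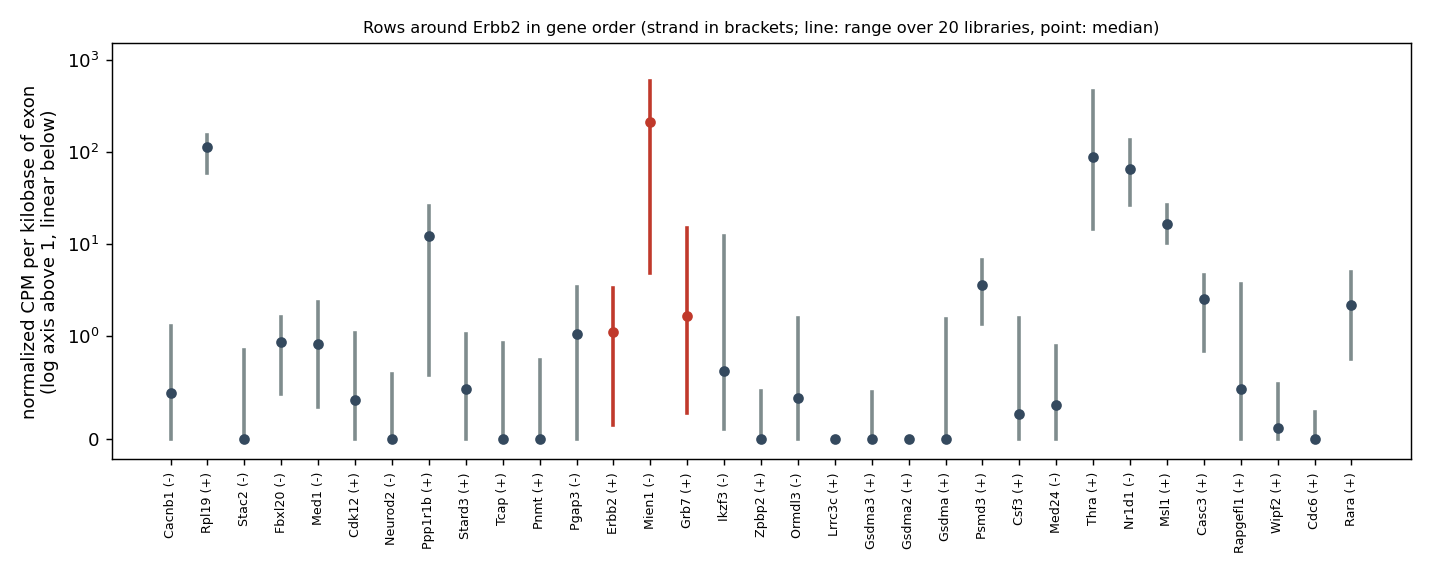
Normalized CPM per kilobase of GENCODE M21 exon for the 33 rows around Erbb2 in gene order; lines span the lowest to the highest of 20 libraries and points are medians, on an axis that is linear below 1 and logarithmic above. The Mien1 row stands at a median of 209 CPM per kilobase between the Erbb2 row (1.10) and the Grb7 row (1.66), shown in red with it.

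The Erbb2 row held few counts in every group and did not separate the genotypes. In tumors it had 6, 8, 4, 11 and 1 counts in Erbb2-deficient mice (replicates 1 to 5), against 10, 1, 6, 5 and 4 counts in controls. These are 4.53, 5.97, 2.79, 8.19 and 0.720 CPM in Erbb2-deficient tumors, against 6.98, 0.908, 5.52, 4.76 and 3.39 CPM in control tumors. The groups overlapped almost completely, and each had a library with a single count. The mean level was 4.44 ± 2.87 CPM in Erbb2-deficient tumors and 4.31 ± 2.30 CPM in control tumors (SD, n = 5 each), a log2 difference of 0.02 ± 0.60 (SE; edgeR's quasi-likelihood test, Benjamini-Hochberg adjusted p = 0.994). The 95% interval of this difference ran from -1.15 to 1.18. Intervals of log2 differences here use the SE with a normal distribution, so they are narrower than the test implies. Without control tumor 2 the difference was -0.23 ± 0.57 (SE; edgeR adjusted p = 0.949).

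In adjacent tissue the Erbb2 row had 22, 12, 22, 12 and 5 counts in Erbb2-deficient mice, against 11, 9, 4, 3 and 12 counts in controls. The corresponding levels were 12.8, 9.97, 17.5, 9.08 and 3.31 CPM in Erbb2-deficient mice, against 10.9, 7.56, 3.06, 2.69 and 10.7 CPM in controls. Replicate 5 was the lowest Erbb2-deficient library and lay among the controls, whose replicates 3 and 4 were the lowest of the 10. It averaged 10.5 ± 5.19 CPM in adjacent tissue of Erbb2-deficient mice and 6.97 ± 3.96 CPM in that of controls (SD, n = 5 each), a log2 difference of 0.60 ± 0.52 (SE; edgeR adjusted p = 0.927). Its 95% interval ran from -0.43 to 1.62, so the row was not shown to be lower where Erbb2 had been recombined.

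Between tissues, the Erbb2 row differed between tumor and adjacent tissue in the Erbb2-deficient mice by -1.23 ± 0.54 on the log2 scale (SE), which did not pass adjustment over all rows (edgeR, unadjusted p = 0.0326, adjusted p = 0.0936, 95% interval -2.28 to -0.18). In controls the tumor against adjacent difference was -0.65 ± 0.57 (SE; edgeR adjusted p = 0.448), and -0.41 ± 0.56 without control tumor 2 (SE; edgeR adjusted p = 0.625). The cell type markers also differed between the tissues, with control tumor 2 included in the control values. Smooth muscle rows fell in tumors in 8 of 8 (edgeR, adjusted p under 0.05) in both genotypes, with median log2 differences of -4.47 in Erbb2-deficient mice and -5.06 in controls. Goblet rows fell in 4 of 7 in Erbb2-deficient mice and 3 of 7 in controls, with medians of -1.94 in Erbb2-deficient mice and -1.98 in controls. Of 8 tested epithelial rows 1 fell in each genotype, with medians of -0.33 in Erbb2-deficient mice and -0.36 in controls. Over all rows 14.5% fell and 13% rose in Erbb2-deficient tumors, and 10.9% fell and 10.7% rose in control tumors. The epithelial count was near that share. Of 3 tested fibroblast rows 1 rose in Erbb2-deficient mice (median 1.68) and none was called in controls (median 0.29). Of 3 tested lymphoid rows 1 rose and 1 fell in Erbb2-deficient mice, and none was called in controls. The part of these marker rows in the Erbb2 difference and every other difference between tumor and adjacent tissue given here was not tested. Fewer cells of a type and less RNA per cell cannot be told apart in such bulk libraries.

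**Figure D2:**
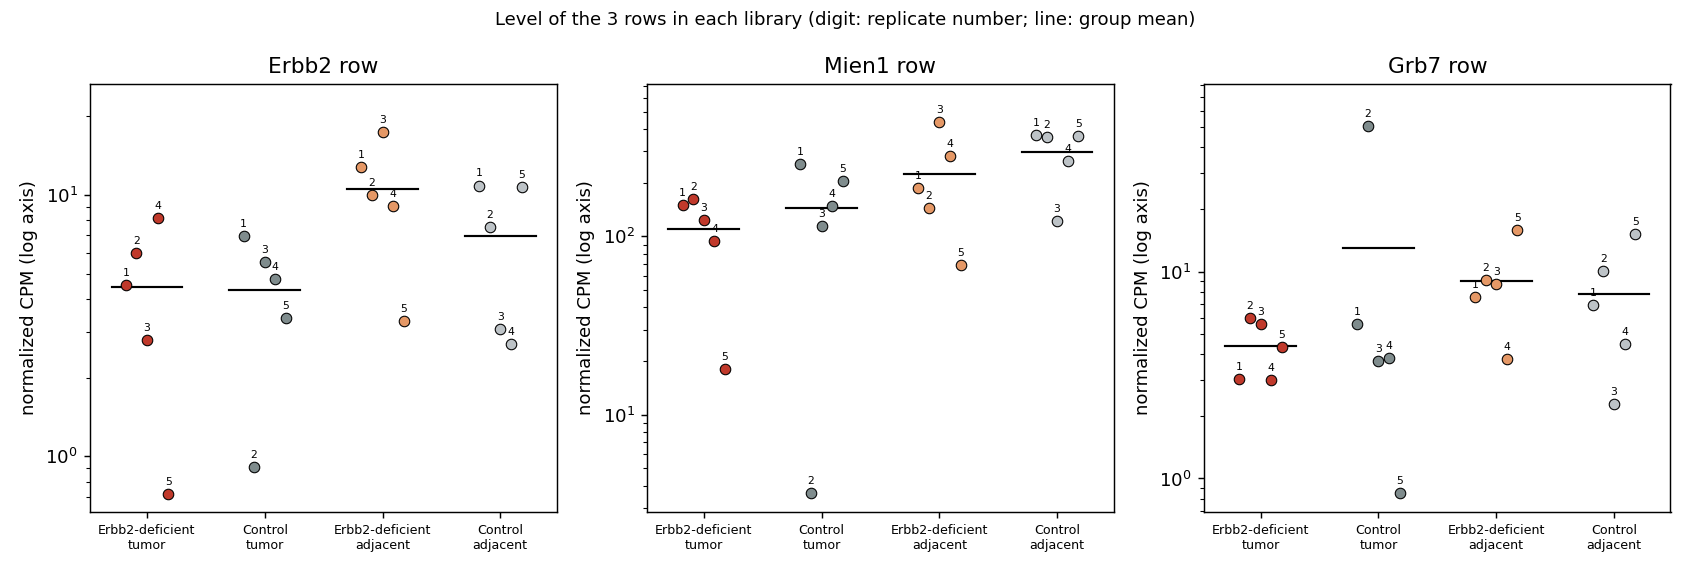
CPM of the Erbb2, Mien1 and Grb7 rows in each of the 20 libraries, by group, on log axes; digits are replicate numbers and lines are group means. The Mien1 row is lowest in control tumor 2 (3.63 CPM), the same library in which the Grb7 row is highest (50.8 CPM).

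The Mien1 row held most of the counts of the 3 rows and varied widely between libraries of one group. In tumors it had 198, 218, 177, 126 and 25 counts in Erbb2-deficient mice, against 366, 4, 125, 155 and 240 counts in controls. The levels were 150, 163, 124, 93.8 and 18.01 CPM in Erbb2-deficient tumors, against 255, 3.63, 115, 148 and 203 CPM in control tumors. Each tumor group had 1 library far below the rest, replicate 5 of the Erbb2-deficient and replicate 2 of the control tumors. The mean was 109.5 ± 57.5 CPM in Erbb2-deficient tumors and 145 ± 95.5 CPM in control tumors (SD, n = 5 each), a log2 difference of -0.41 ± 0.65 (SE; edgeR adjusted p = 0.883). Without control tumor 2 the control mean was 180 ± 62.0 CPM (SD, n = 4) and the log2 difference -0.72 ± 0.49 (SE; edgeR adjusted p = 0.747).

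In adjacent tissue the Mien1 row had 321, 173, 548, 371 and 105 counts in Erbb2-deficient mice, against 374, 429, 160, 296 and 410 counts in controls. The levels were 187, 144, 435, 281 and 69.5 CPM in Erbb2-deficient mice, against 369, 360, 122, 265 and 365 CPM in controls. The Erbb2-deficient group held both the highest and the lowest of the 10 libraries. It averaged 223 ± 141 CPM in adjacent tissue of Erbb2-deficient mice and 296 ± 106 CPM in that of controls (SD, n = 5 each), a log2 difference of -0.41 ± 0.64 (SE; edgeR adjusted p = 0.985). The lowest Erbb2-deficient library was replicate 5 in tumor and in adjacent tissue alike, and its epithelial marker rows summed to 361 CPM in tumor and 288 CPM in adjacent tissue with none at 0.

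Between tumor and adjacent tissue the Mien1 row differed by -1.03 ± 0.65 on the log2 scale in Erbb2-deficient mice (SE; edgeR adjusted p = 0.251), and by -1.03 ± 0.65 in controls (SE; edgeR adjusted p = 0.272). Neither passed the test. In controls the difference without control tumor 2 was -0.73 ± 0.50 (SE; edgeR adjusted p = 0.294). The difference between the genotypes' tissue differences was 0.00 ± 0.96 for the Mien1 row and -0.58 ± 0.79 for the Erbb2 row (SE; edgeR adjusted p = 0.99998 for both). It was -0.27 for Mien1 and -0.80 for Erbb2 without control tumor 2.

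The Grb7 row was low in all groups, and its genotype difference in tumors turned on 1 library. In tumors it had 4, 8, 8, 4 and 6 counts in Erbb2-deficient mice, against 8, 56, 4, 4 and 1 counts in controls. The levels were 3.02, 5.97, 5.59, 2.98 and 4.32 CPM in Erbb2-deficient tumors, against 5.58, 50.8, 3.68, 3.81 and 0.847 CPM in control tumors. Control tumor 2 was far above every other library, and the remaining control tumors overlapped the Erbb2-deficient ones. The mean was 4.38 ± 1.40 CPM in Erbb2-deficient tumors and 12.95 ± 21.2 CPM in control tumors (SD, n = 5 each), a log2 difference of -1.53 ± 0.74 (SE; edgeR, unadjusted p = 0.0527, adjusted p = 0.446). Without control tumor 2 the control mean was 3.48 ± 1.96 CPM (SD, n = 4) and the log2 difference turned to 0.31 ± 0.57 (SE; edgeR adjusted p = 0.925).

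In adjacent tissue the Grb7 row had 13, 11, 11, 5 and 24 counts in Erbb2-deficient mice, against 7, 12, 3, 5 and 17 counts in controls. The levels were 7.56, 9.14, 8.73, 3.78 and 15.9 CPM in Erbb2-deficient mice, against 6.91, 10.1, 2.29, 4.48 and 15.1 CPM in controls. The groups overlapped throughout, and replicate 5 was the highest in both. It averaged 9.02 ± 4.38 CPM in adjacent tissue of Erbb2-deficient mice and 7.78 ± 5.02 CPM in that of controls (SD, n = 5 each), a log2 difference of 0.22 ± 0.72 (SE; edgeR adjusted p = 0.998). Tumor against adjacent tissue gave -1.03 ± 0.75 in Erbb2-deficient mice (SE; edgeR adjusted p = 0.320). In controls it gave 0.72 ± 0.72 with all libraries (SE; edgeR adjusted p = 0.504) and -1.12 ± 0.55 without control tumor 2 (SE; edgeR adjusted p = 0.138). The difference between these tissue differences was -1.75 ± 1.04 (SE; edgeR adjusted p = 0.99998), and 0.11 without control tumor 2.

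Ikzf3, the neighbour beyond Grb7 and a transcription factor of lymphoid cells, was high in the same library. Its row stood at 107 CPM in control tumor 2, against 0.831 to 19.6 CPM in the other 19 libraries, where the Grb7 row stood at 0.847 to 15.9 CPM. Ikzf3 lies on the minus strand, with a gap of 9528 bases to Grb7 in GENCODE M21. The lymphoid marker rows were high in this library and the epithelial rows low, as given above, and their part in the Grb7, Ikzf3 and Mien1 values was not tested.

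**Figure D3:**
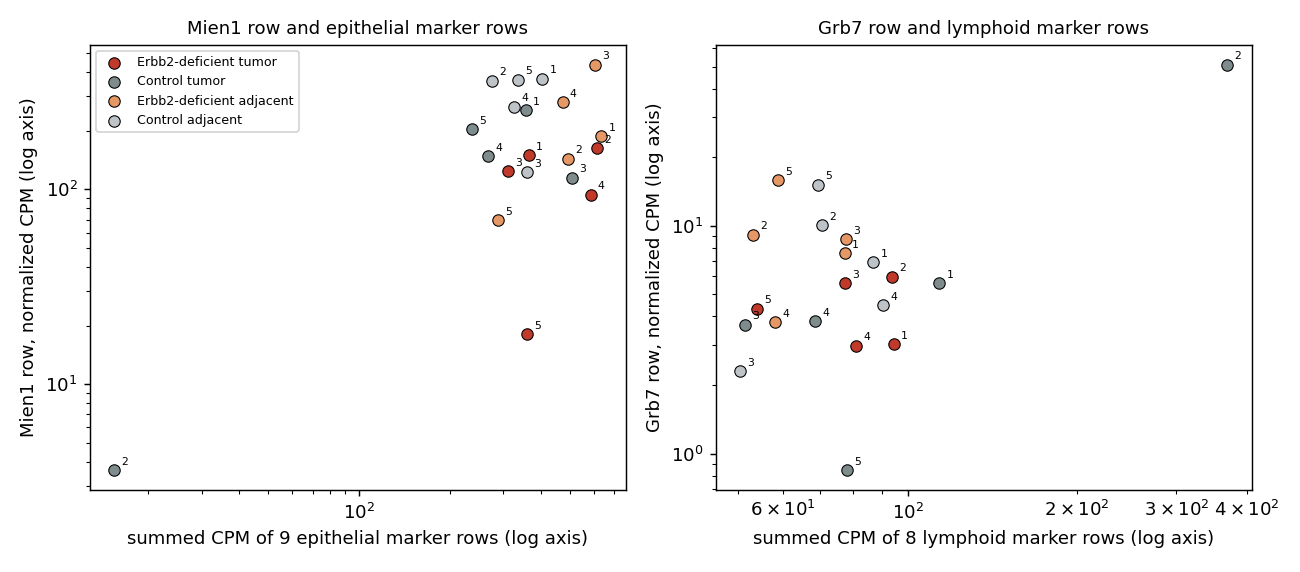
CPM of the Mien1 row against the summed CPM of the epithelial marker rows (left), and of the Grb7 row against that of the lymphoid marker rows (right), in the 20 libraries, on log axes, coloured by group, with replicate numbers. Control tumor 2 lies alone at 15.4 CPM of epithelial rows and 369 CPM of lymphoid rows, with the lowest Mien1 value and the highest Grb7 value.

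None of the 15 edgeR tests of these rows passed an adjusted p of 0.05, and 1 of the 15 had an unadjusted p under 0.05 (Erbb2 between tissues in Erbb2-deficient mice). DESeq2 passed 0 of 15, with 2 of 15 at an unadjusted p under 0.05. The background for these counts was, between genotypes, 0% of 7119 tested rows called by edgeR in tumors, where 817 rows (11.5%) had an unadjusted p under 0.05 and DESeq2 called 26. In adjacent tissue edgeR called 0% as well, with 418 rows (5.87%) at an unadjusted p under 0.05 and 5 called by DESeq2. For the difference of tissue differences it called 0%, with 290 rows (4.07%) at an unadjusted p under 0.05 and 0 by DESeq2. Between tumor and adjacent tissue edgeR called 27.5% of rows in Erbb2-deficient mice and 21.6% in controls, with 39.4% and 35.3% of rows at an unadjusted p under 0.05, so in these comparisons a row without a call was the more common case.

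**Figure D4:**
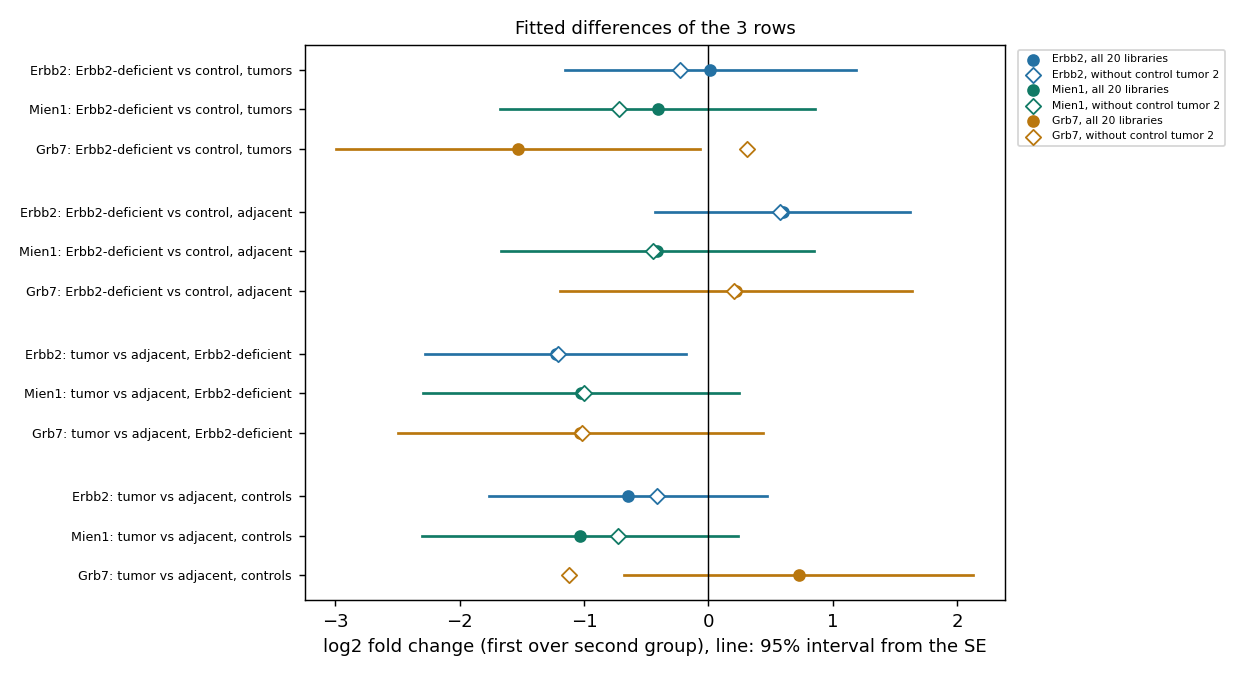
Log2 fold changes of the 3 rows in 4 comparisons, with the first-named group over the second; filled points and lines are the fit of all 20 libraries with its 95% interval, and open diamonds are the fit without control tumor 2. The Grb7 values for tumors by genotype (-1.53 and 0.31) and for controls by tissue (0.72 and -1.12) change sign between the fits. The intervals use the SE with a normal distribution and are narrower than the test implies. For Grb7 in tumors by genotype the line (-2.99 to -0.07) lies wholly on the negative side, although the test did not pass (edgeR, unadjusted p = 0.0527).

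Because both rows of a library share its depth, the Mien1 row was also set against the Erbb2 row within each library, as the log2 ratio of their counts with 0.5 added to each. In adjacent tissue this ratio was lower in Erbb2-deficient mice, at 3.84, 3.79, 4.61, 4.89 and 4.26, than in controls, at 5.03, 5.50, 5.16, 6.40 and 5.04. The groups did not overlap, although the highest Erbb2-deficient library (4.89) and the lowest control (5.03) lay close together. The mean was 4.28 ± 0.48 in Erbb2-deficient and 5.42 ± 0.58 in control adjacent tissue (SD, n = 5 each), a difference of -1.15 on the log2 scale. The two-sided exact permutation test gave p = 0.00794, the smallest that splits of 10 libraries into 5 and 5 can give, and an adjusted p of 0.0317 over the 4 comparisons of the ratio. With any 1 of the 10 libraries left out the difference was -1.30 to -0.90, and the adjusted p was 0.0635, which is the smallest those smaller designs allow, so the call was lost in all 10.

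The numbers behind this difference were small, with 3 to 22 Erbb2 counts in each of the 10 adjacent libraries, and neither row alone passed its test between the genotypes. With the sum of the Erbb2 and Grb7 rows in place of the Erbb2 row the difference was -1.13 and no longer passed (exact permutation p = 0.0635, adjusted p = 0.254). Cell type markers overlapped between the groups but were not equal. Summed epithelial rows were 288 to 634 CPM (median 492) in Erbb2-deficient mice and 275 to 404 CPM (median 336) in controls. Goblet rows were 466 to 898 CPM (median 506) in Erbb2-deficient mice and 191 to 769 CPM (median 360) in controls, and smooth muscle rows were 1047 to 1381 CPM (median 1248) in Erbb2-deficient mice and 1067 to 2516 CPM (median 1824) in controls. Lymphoid rows were 53.2 to 77.8 CPM in Erbb2-deficient mice and 50.5 to 90.5 CPM in controls, and fibroblast rows 9.92 to 50.003 CPM in Erbb2-deficient mice and 9.79 to 93.8 CPM in controls. Their part in the ratio was not tested.

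In tumors the ratio was 4.93, 4.68, 5.30, 3.46 and 4.09 in Erbb2-deficient mice, against 5.13, 1.58, 4.27, 4.82 and 5.74 in controls. The groups overlapped, with control tumor 2 (1.58) the lowest of all 20 libraries. The mean difference was 0.18 (exact permutation p = 0.865, adjusted p = 0.865), and -0.50 without control tumor 2. Between tumor and adjacent tissue the ratio differed by 0.21 in Erbb2-deficient mice (exact permutation p = 0.595, adjusted p = 0.794) and by -1.12 in controls (exact permutation p = 0.167, adjusted p = 0.333). Without control tumor 2 the difference in controls was -0.44 (exact permutation p = 0.333, adjusted p = 0.444).

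**Figure D5:**
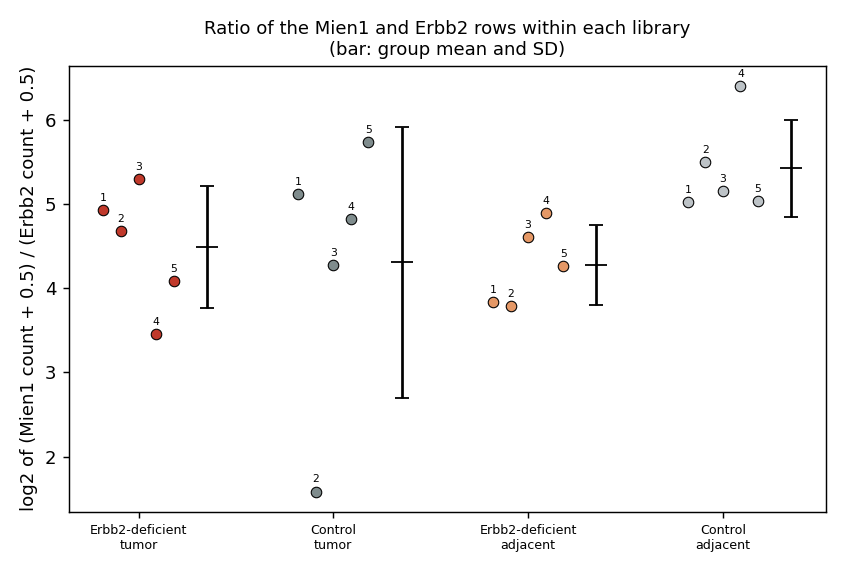
Log2 ratio of Mien1 counts to Erbb2 counts (0.5 added to each) in each library, by group; digits are replicate numbers and bars the group mean and SD. In adjacent tissue the 5 Erbb2-deficient libraries (3.79 to 4.89) lie below the 5 controls (5.03 to 6.40), and in tumors the groups overlap.

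Of the counts on the 3 rows together, not corrected for length, the Mien1 row took 78.1% to 98.0% in 19 libraries and 6.56% in control tumor 2 (Clopper-Pearson 95% interval 1.82% to 15.9%). The mean share was 89.9% ± 6.92 in Erbb2-deficient tumors and 77.4% ± 39.6 in control tumors (SD, n = 5 each). In adjacent tissue it was 89.3% ± 6.83 in Erbb2-deficient mice and 95.5% ± 1.42 in controls (SD, n = 5 each). The wide spread of the control tumors came from replicate 2, since their median was 94.5%, against a median of 93.2% in Erbb2-deficient tumors.

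Across the 20 libraries the Erbb2 and Mien1 rows moved together in log2 CPM, with Pearson's r = 0.75, and with r = 0.76 for deviations from the group means. Mien1 ranked 3 among the 7118 other tested rows by likeness to Erbb2, after Rpl10a (r = 0.77), a ribosomal protein gene, and Mapk3 (r = 0.76), which encodes the kinase ERK1. Without control tumor 2 the Erbb2 and Mien1 rows had r = 0.71, and Mien1 ranked 8. In the other direction, Erbb2 ranked 45 by likeness to Mien1 over the 20 libraries, and 4 without control tumor 2. By deviations from the group means, Mien1 ranked 8 by likeness to Erbb2, and Erbb2 ranked 148 by likeness to Mien1. Rpl10a, like other ribosomal protein genes, has processed copies that could share its reads. The points share libraries, and the Erbb2 values rest on at most 22 counts each. Next in likeness to Erbb2 stood Rps6ka1 (r = 0.75), an S6 kinase of the RSK family, and Tspan1 (r = 0.75), a tetraspanin. On the opposite strand the Rps6ka1 row shares 247 exon bases with Gm12977, and the Rpl10a row 51 with CT025652.2. The rows least like Erbb2 were Zbtb2 (r = -0.79), Kdm2b (-0.73), Uros (-0.72), Boll (-0.72) and Gm40194 (-0.70). On the opposite strand the Kdm2b row shares 627 exon bases with Rnf34 and 199 with A930024E05Rik.

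The rows most like Mien1 were Pdgfa (r = 0.85), a platelet-derived growth factor, Fip1l1 (0.83), Glyr1 (0.83), Gm52328 (0.82) and Pip4k2c (0.82). Much of this rested on control tumor 2, since without it r was 0.62 for Pdgfa, 0.57 for Fip1l1 and 0.57 for Glyr1. On the opposite strand the Pdgfa row shares 813 exon bases with 6330403L08Rik, the Fip1l1 row 466 with Lnx1 and the Pip4k2c row 244 with F420014N23Rik. The rows least like Mien1 were Kdm2b (r = -0.86), Mrpl4 (-0.82), Pan3 (-0.79), 3300002I08Rik (-0.77) and Boll (-0.77). With that library left out these were -0.69 for Kdm2b, -0.56 for Mrpl4, -0.43 for Pan3, -0.39 for 3300002I08Rik and -0.47 for Boll.

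The Grb7 row followed neither neighbour, with r = -0.03 with Erbb2 and r = -0.40 with Mien1 over 20 libraries, and r = 0.41 with Erbb2 and r = 0.21 with Mien1 without control tumor 2. The rows most like it were Ptpn18 (r = 0.87), a tyrosine phosphatase, Atp2a1 (0.87), Cd274 (0.86), which encodes PD-L1, Pglyrp2 (0.86) and Kcng1 (0.85). On the opposite strand the Ptpn18 row shares 492 exon bases with Gm28417, and the Atp2a1 row 763 with Rabep2. The Cd274 row shares 511 with AC119228.1 there, and the Pglyrp2 row 468 with CT485616.1. Without control tumor 2 r was 0.78 for Ptpn18, 0.73 for Atp2a1, Cd274 and Pglyrp2, and 0.72 for Kcng1. Ikzf3 had r = 0.75 with Grb7, and 0.53 without that library. The rows least like Grb7 were Rasip1 (r = -0.87), Gm52902, Gm16537, Tmem190 and Gm28857 (each -0.85). With that library left out these were -0.73 for Rasip1, -0.71 for Gm52902, -0.70 for Gm16537, and -0.69 for Tmem190 and Gm28857. On the opposite strand the Rasip1 row shares 498 exon bases with A030001D20Rik and 222 with Gm45437. The Gm16537 row shares 384 with Gpd1 there, and the Gm28857 row 204 with AA986860.

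Of the 33 genes listed around Erbb2, these 3 included, 14 passed the filter on low counts, and edgeR called none between the genotypes in either tissue, where the background was 0%. Between tissues it called 1 higher and 2 lower in Erbb2-deficient tumors, against 13% higher and 14.5% lower over all rows, and 0 higher and 3 lower in control tumors, against 10.7% higher and 10.9% lower. The list's median log2 difference was -0.49 in Erbb2-deficient mice and -0.70 in controls, beside -0.06 and 0.07 over all rows tested. Thra was lower in tumors in both genotypes. It averaged 157 CPM in Erbb2-deficient tumors and 928 CPM in Erbb2-deficient adjacent tissue, a log2 difference of -2.56 ± 0.44 (SE; edgeR adjusted p = 0.000349). In controls Thra averaged 189.5 CPM in tumors and 1102 CPM in adjacent tissue, a log2 difference of -2.54 ± 0.44 (SE; edgeR adjusted p = 0.000528). Thra shares 263 exon bases with Nr1d1, which encodes the clock repressor REV-ERB alpha, on the opposite strand.

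Msl1, a subunit of a histone acetyltransferase complex, was lower by 0.76 ± 0.19 in Erbb2-deficient tumors (SE; edgeR adjusted p = 0.00522) and by 0.74 ± 0.19 in control tumors (SE; edgeR adjusted p = 0.00875) on the log2 scale. Psmd3, a proteasome subunit, averaged 25.7 CPM in Erbb2-deficient tumors and 13.8 CPM in adjacent tissue, higher by 0.90 ± 0.32 on the log2 scale (SE; edgeR adjusted p = 0.0418). The Psmd3 difference in controls was 0.53 (edgeR adjusted p = 0.265). On the opposite strand the Msl1 row shares 266 exon bases with Gm12359, which has a row of its own, and the Psmd3 row 17 with Gm12356. Rara, a retinoic acid receptor, averaged 5.92 CPM in control tumors and 13.3 CPM in control adjacent tissue, a log2 difference of -1.16 ± 0.40 (SE; edgeR adjusted p = 0.0455). The Rara difference in Erbb2-deficient mice was -0.51 (edgeR adjusted p = 0.336). All 4 of these genes lie beyond Grb7. The only tested rows on the other side of Erbb2 were Rpl19, Fbxl20, Med1 and Ppp1r1b. Between tissues none of them was called, beside 27.5% of all rows in Erbb2-deficient mice and 21.6% in controls. In controls Fbxl20 differed by -0.81 (edgeR adjusted p = 0.101) and Ppp1r1b by -1.02 (edgeR adjusted p = 0.109). No difference between the sides of Erbb2 was shown.

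Of 38 genes listed for ERBB signalling (adaptors, kinases, phosphatases, chaperones and other partners downstream of the receptors), 19 were tested, and edgeR called none between the genotypes in tumors or in adjacent tissue. The background in both of these comparisons was 0% of 7119 rows, so the absence of calls is not particular to this list. In Erbb2-deficient mice 2 were higher and 4 lower in tumor than in adjacent tissue, beside 13% higher and 14.5% lower over all rows. In controls 1 was higher and 2 lower, beside 10.7% higher and 10.9% lower over all rows. The list medians were -0.13 in Erbb2-deficient mice and -0.23 in controls, beside -0.06 and 0.07 over all rows. Hsp90ab1, a chaperone of which ERBB2 is a known client and whose processed copies could share its reads, averaged 265 CPM in Erbb2-deficient tumors and 112 CPM in their adjacent tissue, a log2 difference of 1.24 ± 0.27 (SE; edgeR adjusted p = 0.00209). In controls Hsp90ab1 averaged 179 CPM in tumors and 83.6 CPM in adjacent tissue, a log2 difference of 1.10 ± 0.27 (SE; edgeR adjusted p = 0.00696). Cdc37, a co-chaperone of kinases, was higher by 1.08 ± 0.38 in Erbb2-deficient tumors (SE; edgeR adjusted p = 0.0370). The Cdc37 difference in controls was 0.42 (edgeR adjusted p = 0.475).

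Among the kinase cascade rows, Braf was lower in tumors by 1.26 ± 0.27 in Erbb2-deficient mice (SE; edgeR adjusted p = 0.00182) and by 0.88 ± 0.27 in controls (SE; edgeR adjusted p = 0.0246). The Braf row shares 146 exon bases with Ndufb2 on the opposite strand. Ptk2, the focal adhesion kinase, was lower by 0.94 ± 0.29 (edgeR adjusted p = 0.0205), and Erbin, which binds ERBB2, by 1.34 ± 0.43 (edgeR adjusted p = 0.0241), in Erbb2-deficient tumors. Control tumors differed the same way without passing, by -0.58 for Ptk2 (edgeR adjusted p = 0.156) and -1.03 for Erbin (edgeR adjusted p = 0.101). Of the other receptors of the family, Egfr was tested and had a tumor against adjacent difference of -1.29 ± 0.49 in controls (SE; edgeR adjusted p = 0.0642). The Egfr difference in Erbb2-deficient mice was -0.69 (edgeR adjusted p = 0.271). Erbb3 held at most 26 counts in a library and Erbb4 was at 0 counts in all 20.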

How the data were processed

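The deposited files hold whole-number read counts per gene, 1 file per library, and the submitters' processing notes name Trimmomatic, HISAT2 2.2.1, HTSeq 2.0.2, DESeq2 and mm39; the order of steps is not recorded there. RNA was extracted with a Maxwell LEV simplyRNA kit and libraries were TruSeq Stranded mRNA, per the labels' protocols. The 5 summary rows of each file entered neither library sizes nor tests. Rows were kept by edgeR's filterByExpr with a minimum count of 10 (7119 of 46329), scaled by TMM and fitted with the quasi-likelihood model of edgeR 4.0.16 in R 4.3.3 over all 4 groups, with Benjamini-Hochberg adjustment over the rows tested. The ratio of 2 rows was tested by exact permutation in SciPy 1.17.1. DESeq2 1.42.0 was an alternative, as were other filters and scalings and leaving out libraries. The code was tested on simulated data. The 3 rows are named in full, the rows around Erbb2 by their level, ERBB signalling rows where called, at most 4 per direction with 1 of them counted but not reported by name here, and the 5 most and 5 least like rows by Pearson's r of log2 CPM with a prior count of 2. Members and lists were chosen with earlier results of these data known. Replicate numbers come from the titles.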

Additional observations from a re-analysis of the deposited data

Results flagged for a closer look

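The Grb7 row of control tumor 2 stood at 50.8 CPM, against 0.847 to 5.58 CPM in the other 4 control tumors, and its gap to the nearest of them exceeded Dixon's 95% critical value of 0.71 for 5 samples. It was the single value so flagged among 16 groups looked at, and chance flags about 1 in 20 groups. The marker rows of this library are given with the results, and their part in the value was not tested.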

How the results depend on the processing

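Across the alternatives the calls of the 3 rows changed little, and the counts behind the Erbb2 and Grb7 rows set the limit. With no filter the genotype difference in tumors of the Erbb2 row was -0.0128 and 1 row was called between genotypes in adjacent tissue. With a minimum count of 30 the Mien1 interaction was -0.0036, and Erbb2 and Grb7 gave no value. DESeq2 called 26 rows between genotypes in tumors and 5 in adjacent tissue. Fitting only the groups compared called 593 rows between tissues in controls. Total gene counts without TMM factors gave 1233 higher and 756 lower rows between tissues in Erbb2-deficient mice, against 929 and 1030 with TMM, and 945 higher and 637 lower in controls, against 764 and 776.

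Without control tumors 2 and 3, the genotype differences in tumors were -0.16 for Erbb2, 0.36 for Grb7 and -0.74 for the ratio, 1 row was called between genotypes in adjacent tissue, 2939 and 2544 rows were called between tissues in Erbb2-deficient mice and controls, Grb7 differed between tissues in controls by -1.13, and the interactions were -0.39 for Mien1 and 0.15 for Grb7. Against the Erbb2 and Grb7 sum, the ratio differed between genotypes in adjacent tissue by -1.13. Of the 13 alternatives for that ratio, 12 did not pass and 1, an added count of 1, did (-1.10, exact permutation adjusted p = 0.0317). Of those 12, the 10 that left out 1 library and the replicate block gave the smallest exact p their designs allow. The ratio to the sum of the Erbb2 and Grb7 rows did not reach the smallest p its design allows.

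The same-number correlations of deviations from group means were -0.0161 to 0.228 between tissues in Erbb2-deficient mice and -0.115 to 0.370 in controls. Tumor replicates 1, 3 and 4 in controls and 5 in Erbb2-deficient mice correlated best with their own number, and the others did not. Pairing was thus neither shown nor excluded, and the replicate numbers were not taken to pair the samples. With the replicate block edgeR called 1989 rows between tissues in Erbb2-deficient mice, 1428 in controls and 0 between genotypes or for the interaction. The ratio in adjacent tissue then differed by -1.15 with p = 0.0625 by exact permutation within pairs (adjusted p = 0.25). That p is the smallest that 5 pairs allow, so this design could not pass. The replicate block without control tumors 2 and 3, chosen after seeing the data, called 3139 and 2336 rows in Erbb2-deficient mice and controls. In it the tissue differences in Erbb2-deficient mice were -1.20 for Erbb2 (edgeR adjusted p = 0.0456) and -1.01 for Mien1 (edgeR adjusted p = 0.0101), which passed the test there, Grb7 differed by -1.29 in controls, and the interactions were -0.27 for Mien1 and 0.35 for Grb7.

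Leaving out 1 library at a time gave these ranges. Between genotypes in tumors, 0 rows were called, with -0.32 to 0.28 for Erbb2, -0.72 to -0.10 for Mien1, -1.87 to 0.31 for Grb7 and -0.50 to 0.54 for the ratio. Between genotypes in adjacent tissue, 0 to 2 rows were called, with 0.33 to 0.80 for Erbb2, -0.82 to -0.21 for Mien1, -0.11 to 0.59 for Grb7 and -1.30 to -0.90 for the ratio, whose exact p of 0.0159 (adjusted p = 0.0635) is the smallest those designs allow, so none of the 10 kept the call. Between tissues in Erbb2-deficient mice, 1573 to 2719 rows were called, with -1.53 to -0.94 for Erbb2, -1.23 to -0.62 for Mien1, -1.21 to -0.70 for Grb7 and 0.012 to 0.47 for the ratio; the highest count came without control tumor 2. Between tissues in controls, 1188 to 2127 rows were called, with -0.90 to -0.41 for Erbb2, -1.33 to -0.73 for Mien1, -1.12 to 1.14 for Grb7 and -1.47 to -0.44 for the ratio. The interactions were -0.89 to -0.29 for Erbb2, -0.27 to 0.42 for Mien1 and -2.16 to 0.11 for Grb7, with 0 rows called.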
